A study of Gallus gallus with 12 samples.

Results

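The comparison is between hypothalamus that had recovered from heat and hypothalamus that was never heated, on 8 of the 12 arrays of the series. TR birds (TR1 to TR4) spent 24 h at 34°C followed by 24 h back at 25°C, HS birds (HS1 to HS4) were taken at the end of 24 h at 34°C, and CL birds (CL1 to CL4) stayed at 25°C. By the treatment description, all 12 were female Anak_40 broilers 56 d of age at the heating, related as siblings, with 4 birds in a group and an array for each bird. The members were chosen by the array titles, as the 4 temperature recovery and the 4 non-heat stress arrays. The HS arrays entered the quantile normalization, the filter on dim probes and the choice of the brightest probe of a gene. They also entered the estimate of the spread and values set side by side. Recovery cannot be told apart from the extra day between the sampling of HS and TR birds.

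Other label fields went against the titles and called the same arrays spleen, from male birds infected with Marek's disease virus or not infected. The groups here follow the titles and the treatment description. Of 8 hypothalamus markers, 4 had a named probe, and SIX3, AVP and TRH were above background on all 12 arrays, with SIX3 at 10.26 to 10.78 in TR, 10.32 to 10.52 in HS and 10.01 to 10.76 in CL (log2 signal). Of 3 spleen markers, the B cell factor PAX5 was not above background on any of the 12 arrays and the B cell gene CD79B was above it on 3 TR, 4 HS and 3 CL arrays, while the T cell gene CD3E was at 8.44 to 9.31 in TR, 9.06 to 9.31 in HS and 8.64 to 9.30 in CL.

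Each group lay on a slide of its own, and CL was scanned on another day than TR and HS. Slide, scan and group therefore cannot be told apart, and this holds for every difference below. Between 35060 and 36852 probes were above background on TR arrays, 33505 to 36019 on HS arrays and 35794 to 36805 on CL arrays. The median spot stood 13.6 to 16.1 times over its local background on TR arrays, 15.6 to 17.3 times on HS arrays and 11.8 to 13.7 times on CL arrays. CL2 stood apart by its striated muscle genes, so many TR vs. CL results are given with and without it. All HS vs. CL values include CL2.

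The hypothalamus holds the neurons that sense body temperature and drive panting, blood flow to the skin, feeding and the release of pituitary hormones. In heat, cells make heat shock proteins, chaperones that hold and refold damaged proteins, and these transcripts are known to return to their resting level after the heat ends. The comparison asks which transcripts were still away from the unheated level a day later, and which had passed it on the other side.

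Few probes differed between TR and CL. Of 34922 probes tested in limma on quantile-normalized log2 signals, 33 (0.0945%) were differentially expressed (DE), meaning p under 0.05, a Benjamini-Hochberg adjusted p (FDR) under 0.15 and a fold change over 1.5. Of these, 16 (0.0458%) rose and 17 (0.0487%) fell in TR, and 8 carry a gene name. In the same fit, 644 of 34917 probes were DE in TR vs. HS (1.84%) and 1250 of 34917 in HS vs. CL (3.58%), and these comparisons share arrays with TR vs. CL. For 67.5% of the probes, the 95% interval of the TR vs. CL difference lay within 1.5-fold in both directions. The log2 differences of 95% of the probes ran between -0.48 and 0.53, with a median of -0.01 and a median standard error (SE) of 0.14.

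The TR and CL arrays did not overlap for any of the 33 DE probes, while 1851 of all probes (5.3%) had no overlap. On all 8 arrays, 29 of the 33 were above background. Without CL2, 8 probes were DE (0.0229%), 6 higher and 2 lower in TR, and 6 of them were among the 33. All 33 kept their direction without CL2 and had an unadjusted p under 0.05. The 33 were chosen on these same arrays, so these counts and the lack of overlap are not independent support for them. No probe passed an FDR of 0.05 in limma, although 2719 had an unadjusted p under 0.05, and a t-test left 1 probe at the same limits as above. The study names a t-test for its PCR, and made its array calls with SAS software and an R package.

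The named DE genes that rose included a matrix receptor, a neuropeptide and the RNA of telomerase. ITGA8, the alpha 8 subunit of an integrin that binds extracellular matrix, had log2 signals of 7.80, 7.35, 7.78 and 7.01 in TR, 5.66, 5.40, 5.95 and 5.90 in HS, and 6.03, 6.81, 5.83 and 5.93 in CL. Every TR array lay above every HS and CL array, and CL2 was the CL array nearest to TR. It rose by 1.33 ± 0.24 (log2 difference ± SE) in TR vs. CL, 2.52-fold, with an adjusted p of 0.137, and by 1.55 without CL2 (adjusted p = 0.127). In TR vs. HS its difference was 1.76 (adjusted p = 0.0113), whereas HS vs. CL gave -0.43 (adjusted p = 0.338). It was the only named gene DE both with all 8 arrays and without CL2.

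PRLH, the prolactin-releasing hormone, which in mammals also lowers food intake, was at 10.68, 11.36, 10.81 and 10.27 in TR, 10.25, 10.08, 9.81 and 10.05 in HS, and 9.82, 9.73, 9.72 and 9.36 in CL. The lowest TR array was level with the highest HS array and above every CL array. PRLH rose by 1.12 ± 0.20 (2.18-fold, adjusted p = 0.123) in TR vs. CL, by 1.15 without CL2 (adjusted p = 0.318) and by 0.73 in TR vs. HS (adjusted p = 0.12).

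TERC, the RNA template of telomerase, had 8.59, 8.34, 7.95 and 7.71 in TR, 7.21, 7.03, 6.98 and 6.85 in HS, and 7.46, 7.07, 6.95 and 6.64 in CL. TR lay above both other groups, which overlapped each other. The rise was 1.12 ± 0.20 (2.17-fold, adjusted p = 0.137) in TR vs. CL and 1.13 in TR vs. HS (adjusted p = 0.0379). BVES, a membrane protein that binds cyclic AMP and is known from heart and skeletal muscle, was at 11.39, 11.25, 11.03 and 11.37 in TR, 11.27, 11.18, 11.14 and 11.28 in HS, and 10.95, 10.41, 10.55 and 10.44 in CL. Here the heated and the recovered birds both stood above CL, and CL2 had the lowest signal of all. BVES rose by 0.67 ± 0.13 (1.59-fold, adjusted p = 0.145) in TR vs. CL and by 0.63 in HS vs. CL (adjusted p = 0.0372), and its other probe gave 0.65 in TR vs. CL (adjusted p = 0.268). Without CL2 the rise in TR vs. CL was 0.61 (adjusted p = 0.375), and BVES was not DE.

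The named genes that fell were a phospholipase, a lysosomal protein and a protease inhibitor. PLD1, a phospholipase that makes the signalling lipid phosphatidic acid, had 9.49, 9.59, 9.53 and 9.51 in TR, 9.65, 9.61, 9.30 and 9.25 in HS, and 10.25, 10.49, 10.26 and 10.002 in CL. TR and HS overlapped and both lay below every CL array. The fall was -0.72 ± 0.12 (adjusted p = 0.107) in TR vs. CL, -0.80 in HS vs. CL (adjusted p = 0.0143) and -0.64 in TR vs. CL without CL2 (adjusted p = 0.300). LAMP3, a glycoprotein of the lysosome membrane, was at 7.24, 7.25, 7.04 and 7.16 in TR, 7.45, 7.83, 7.43 and 7.88 in HS, and 8.01, 8.16, 7.95 and 7.61 in CL. TR arrays were the lowest of the 12, and HS overlapped with CL. Its differences were -0.76 ± 0.14 in TR vs. CL (adjusted p = 0.137) and -0.47 in TR vs. HS (adjusted p = 0.142), the first of which passed the fold limit.

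OVST, the protease inhibitor ovostatin known from egg white, had one probe at 3.87, 3.17, 4.47 and 2.89 in TR, 5.82, 5.49, 5.24 and 4.89 in HS, and 5.48, 5.63, 5.14 and 5.26 in CL. The probe was not above background on any TR array, and it was above background on 3 HS and 4 CL arrays. With each TR array set at its lowest signal above background, OVST was 1.69-fold lower in TR than in CL (adjusted p = 0.121 on the measured signals). Some probes not above background lay over that lowest signal, so it is not a strict limit. TR vs. HS gave -1.76 (adjusted p = 0.0354). This probe passed the filter through CL alone, so its values are a description. The brighter probe of OVST gave -0.04 in TR vs. CL (unadjusted p = 0.815), so the probes of the gene differed.

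**Figure D1:**
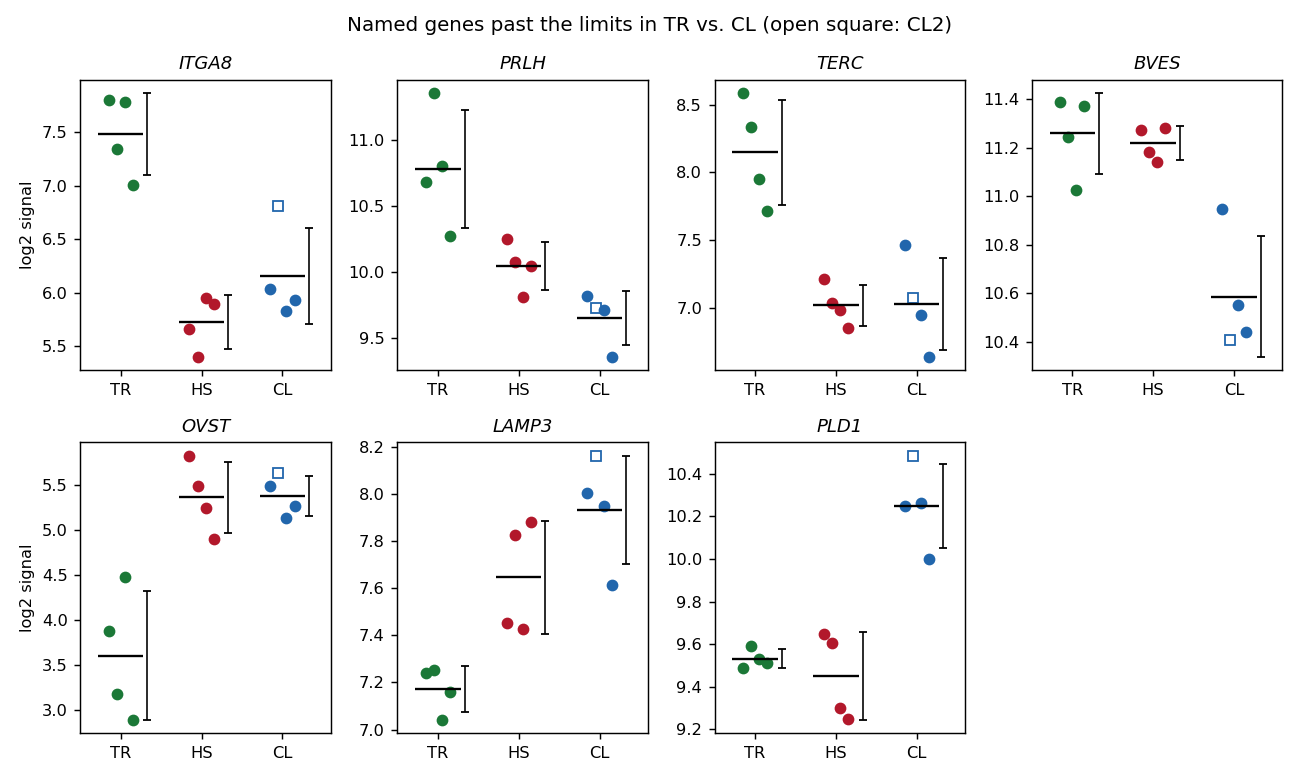
Log2 signal (vertical axes) of 7 named DE genes in TR, HS and CL, with a point for each array, a line at the mean, bars of 1 SD and an open square for CL2. ITGA8 and TERC were higher in TR than in both other groups, OVST was lower than in both, and BVES and PLD1 had TR and HS on the same side of CL.

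The remaining 25 DE probes have no gene name here, and the 5 with the largest change in each direction are given by probe ID. A_87_P114723 had 5.37, 5.74, 6.72 and 5.37 in TR, 3.75, 4.77, 4.68 and 5.12 in HS, and 2.62, 3.35, 3.56 and 2.63 in CL, and was above background on the 4 TR arrays only. With each CL array set at its lowest signal above background, this probe was 2.54-fold higher in TR than in CL (adjusted p = 0.0547 on the measured signals). A_87_P119353 was at 9.46 to 9.92 in TR, 8.71 to 9.66 in HS and 7.63 to 8.51 in CL, a rise of 1.76 ± 0.24 (adjusted p = 0.0547). A_87_P178808, above background on 4 TR arrays, 2 HS arrays and 1 CL array, rose by 1.46 (adjusted p = 0.0679), A_87_P105078 by 1.15 (adjusted p = 0.0963) and A_87_P106353 by 1.08 (adjusted p = 0.144). A_87_P114723 and A_87_P178808 passed the filter through TR alone, so their values are a description.

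The probe A_87_P105078 resembled ITGA8 in that TR was high alone, at 8.13 to 8.62 in TR against 6.65 to 7.35 in HS and 6.94 to 7.54 in CL. A_87_P106353 resembled BVES, with TR at 10.04 to 10.52 and HS at 9.78 to 10.32, both above the 8.68 to 9.60 of CL. Among the unnamed probes that fell, A_87_P016734 was above background on no TR array and on 1 HS array. With each TR array set at its lowest signal above background, it was 1.59-fold lower in TR than in CL (adjusted p = 0.137 on the measured signals). This probe passed the filter through CL alone, so its values are a description. A_87_P071396 lay at 6.41 to 6.97 in TR, 6.36 to 6.73 in HS and 7.56 to 7.62 in CL, a fall of -0.93 ± 0.12 in TR (adjusted p = 0.0547) and of -1.05 in HS (adjusted p = 0.00251). A_87_P020678, A_87_P061776 and A_87_P013162 likewise had differences from CL of -0.94, -0.86 and -0.81 in TR and of -0.78, -1.06 and -0.99 in HS. A_87_P114723, A_87_P071396 and A_87_P061776 stayed DE without CL2.

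Gene families were then read over the brightest tested probe of each of 4302 named genes, of which 154 (3.58%) were higher and 141 (3.28%) lower in TR at an unadjusted p under 0.05. Without CL2 these counts were 113 (2.63%) and 126 (2.93%). Besides the DE genes, ITGA1 was the only gene whose brightest probe had an adjusted p under 0.15, so any other member said to pass an unadjusted p did not pass over all probes. Signals are of whole tissue, in which fewer cells of a type and less RNA per cell cannot be told apart. The median difference over all 4302 genes was -0.01, both with and without CL2.

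**Figure D2:**
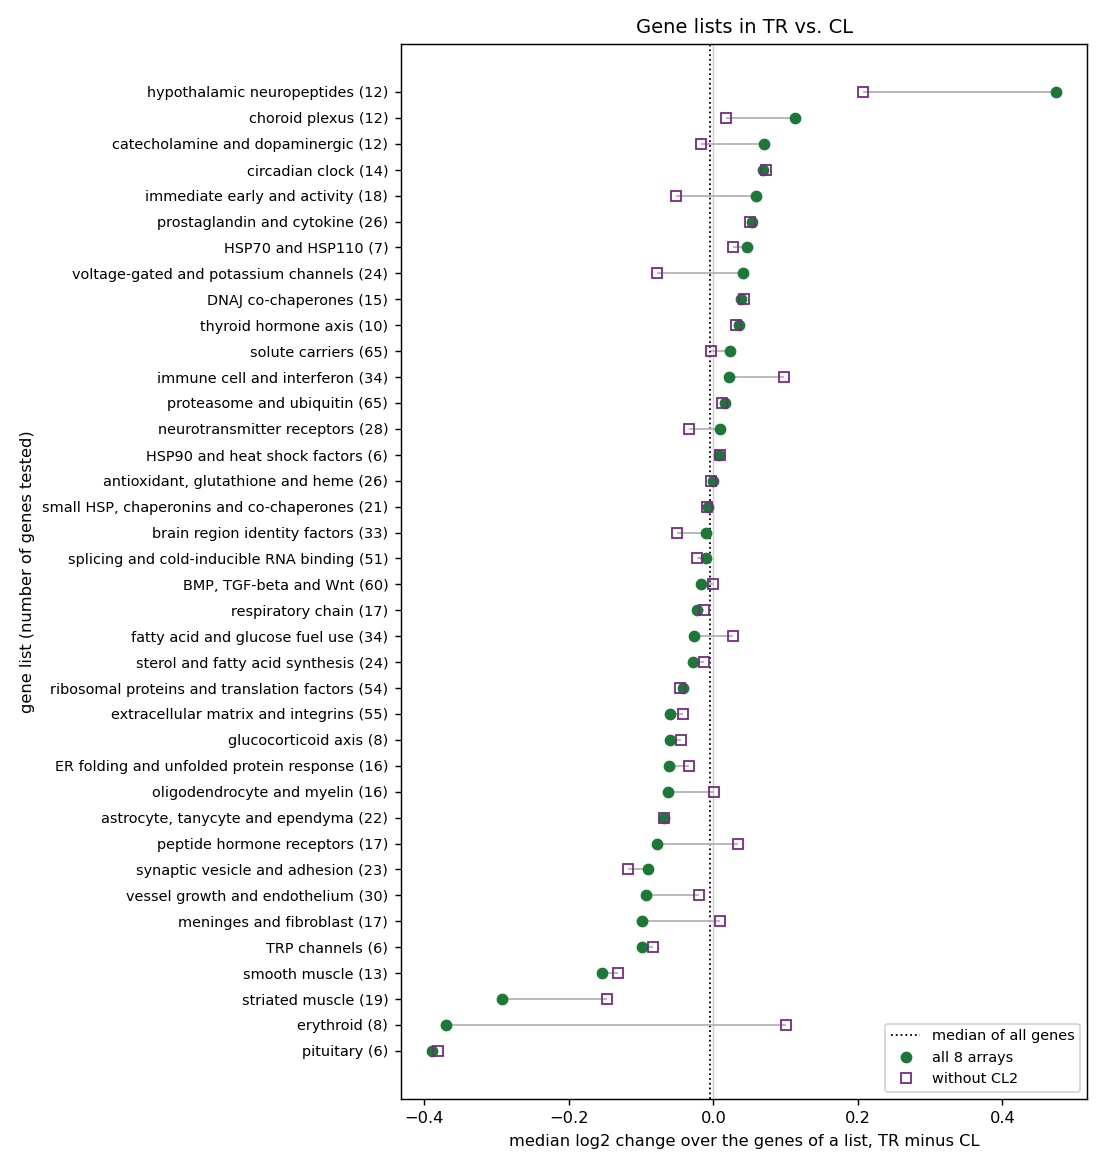
Median log2 difference, TR minus CL, over the genes of each list (rows, with the number of genes tested), with all 8 arrays (filled circles) and without CL2 (open squares). Most medians lay within 0.1 of 0; neuropeptides (0.47), striated muscle (-0.29), erythroid (-0.37) and pituitary genes (-0.39) lay farther out, and without CL2 their medians were 0.21, -0.15, 0.10 and -0.38.

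Heat shock chaperones were close to the unheated level, and as lists they were close to it at the end of the heat too. On their brightest probes, none of 7 genes of the HSP70 and HSP110 families passed an unadjusted p of 0.05. All 7 had 95% intervals within 1.5-fold, and their median difference was 0.05. HSPA8, the constitutive HSP70, was at 17.47, 17.13, 17.12 and 17.40 in TR, 17.52, 17.45, 17.29 and 17.59 in HS, and 17.52, 17.12, 17.17 and 17.28 in CL. The groups overlapped throughout, and the difference was 0.01 with an interval of -0.25 to 0.27. HSPH1, an HSP110 that helps HSP70 exchange its nucleotide, gave 0.17 (unadjusted p = 0.288), and HSPA5, the HSP70 of the endoplasmic reticulum (ER), gave -0.18 (unadjusted p = 0.294). Dimmer probes of HSPH1 gave 0.36 (unadjusted p = 0.0448) and 0.16 (unadjusted p = 0.364). On its brightest probe, no gene of this list, nor of the HSP90, DNAJ, small heat shock protein or ER folding lists below, was DE in HS vs. CL. The median differences of these lists in HS vs. CL were 0.04, -0.05, 0.05, 0.05 and -0.13, in that order. Closeness to CL in TR therefore does not show a return of these lists from a rise in heat. Of single members, the study lists DNAJC13 as higher and HSP90AB1 (HSPCB there) as lower in HS vs. CL, on the array and by PCR.

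Of 6 HSP90 and heat shock factor genes, HSP90AB1 alone passed an unadjusted p. HSP90AB1, the constitutive HSP90, had 12.05, 12.22, 11.99 and 12.27 in TR, 11.94, 11.99, 11.81 and 12.15 in HS, and 12.52, 12.84, 12.58 and 12.20 in CL. CL4 lay among the TR arrays, and the other CL arrays lay above them. The difference was -0.40 ± 0.13 in TR vs. CL (adjusted p = 0.517) and -0.56 in HS vs. CL (adjusted p = 0.0558), each under 1.5-fold, and -0.30 in TR vs. CL without CL2. HSP90AA1, the inducible HSP90, had a difference of 0.15 (-0.21 to 0.50), with the value of CL4 left out as an outlier spot. The other 3 probes of HSP90AB1 gave -0.26, -0.27 and -0.07, none past an unadjusted p.

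Of 15 DNAJ co-chaperones, which hand clients to HSP70, 2 were higher at an unadjusted p. DNAJC6, the auxilin that uncoats clathrin vesicles in neurons, was at 12.36, 12.38, 12.37 and 12.53 in TR, 12.45, 12.21, 12.30 and 12.38 in HS, and 12.22, 11.60, 12.15 and 11.94 in CL. It lay above CL on all TR arrays, by 0.43 on average (unadjusted p = 0.00551) and by 0.31 without CL2, the lowest array, while its other probes gave 0.04 and 0.07. DNAJB14, a DNAJ protein of the ER membrane, had 14.39 to 14.47 in TR, 14.26 to 14.68 in HS and 14.11 to 14.19 in CL, a difference of 0.29 (unadjusted p = 0.00722) that also did not overlap.

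Among 21 small heat shock proteins, chaperonins and co-chaperones, and among 16 genes of ER folding and the unfolded protein response, none passed an unadjusted p, with median differences of -0.01 and -0.06. Within these lists, 19 of 21 and 13 of 16 genes had intervals inside 1.5-fold. The smallest p-values were those of FKBP4, a co-chaperone of steroid receptors, at 0.21 (unadjusted p = 0.0527), and PDIA4, a protein disulfide isomerase, at -0.17 (unadjusted p = 0.139). GSTA4, a glutathione transferase that clears products of lipid oxidation, was the 1 of 26 antioxidant, glutathione and heme genes past an unadjusted p. It had 13.78, 12.86, 12.72 and 12.26 in TR, 12.51, 12.02, 11.62 and 12.14 in HS, and 11.76, 12.09, 12.37 and 11.83 in CL. TR4 lay within CL and the other TR arrays above it. Its difference was 0.89 ± 0.29 (adjusted p = 0.520), and 1.16 and 1.52 on its other probes.

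Transcripts of neuropeptides varied widely from bird to bird. Of 12 genes of peptides and their secretory partners, none passed an unadjusted p and 1 had an interval inside 1.5-fold, and the median difference of 0.47 was 0.21 without CL2. AVP, which in birds encodes the water-balance hormone vasotocin, had 13.21, 16.97, 13.42 and 10.96 in TR, 16.38, 17.70, 18.38 and 18.71 in HS, and 17.68, 7.68, 13.60 and 10.43 in CL. CL2 was the lowest of the 12 arrays, and the TR arrays lay within the range of CL. The difference was 1.29, with an interval of -2.78 to 5.36, and -0.26 without CL2. HS vs. CL gave 5.44 (adjusted p = 0.137) with CL2 included, so it is to be set beside the 1.29 and not the -0.26.

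NPY, a peptide that drives feeding, was at 8.94, 9.69, 11.51 and 9.77 in TR, 10.55, 10.42, 11.69 and 12.59 in HS, and 10.13, 7.05, 9.57 and 10.65 in CL. It too was lowest in CL2, and its difference was 0.63 with all arrays and -0.14 without CL2. GNRH1, the releasing hormone of the reproductive axis, was at 6.69, 7.13, 6.59 and 6.32 in TR, 7.42, 6.79, 8.07 and 8.86 in HS, and 6.60, 5.91, 6.26 and 6.16 in CL. TR overlapped with both groups, at 0.45 (-0.35 to 1.25) over CL, whereas HS vs. CL gave 1.55 (adjusted p = 0.0569). CHGA, a protein of secretory granules, differed by 1.26 (-0.74 to 3.26), and by 0.77 without CL2. CL2 had the lowest signal of the 12 arrays in AVP, NPY and CHGA.

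Peptide hormone receptors gave 2 of 17 genes past an unadjusted p, both lower in TR. SSTR2, a somatostatin receptor, had 6.51, 6.36, 6.30 and 5.86 in TR, 6.88, 7.51, 7.18 and 7.31 in HS, and 7.08, 7.11, 6.55 and 6.90 in CL. Every TR array was below every other array. The difference was -0.65 ± 0.18 in TR vs. CL (adjusted p = 0.410) and -0.96 in TR vs. HS (adjusted p = 0.0410), so SSTR2 fell against the heated birds and did not pass against CL. VIPR2, a receptor of vasoactive intestinal peptide, had 12.49, 8.71, 11.37 and 8.66 in TR, 12.18, 11.66, 13.06 and 12.64 in HS, and 12.66, 12.13, 13.18 and 13.18 in CL. TR2 and TR4 lay far below the other 10 arrays, and TR1 lay within CL. Its difference was -2.48 (adjusted p = 0.483), and the other probe gave -0.96 (unadjusted p = 0.0646).

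Catecholamine genes gave 2 of 12 past an unadjusted p, both of them dopamine receptors. TH, tyrosine hydroxylase, the rate-limiting enzyme of dopamine synthesis, had 2.41, 3.99, 2.40 and 2.37 in TR, 5.04, 6.30, 7.24 and 9.54 in HS, and 4.68, 4.50, 2.39 and 2.32 in CL. It was above background on no TR array, on all 4 HS arrays and on 1 CL array, so no fold change between TR and CL is given. GCH1, which makes the cofactor of that enzyme, had 5.40, 5.47, 5.86 and 4.98 in TR, 6.02, 6.97, 6.24 and 6.59 in HS, and 5.34, 5.36, 5.70 and 5.43 in CL. HS lay above both other groups, and TR overlapped with CL. TR vs. CL gave -0.03 (-0.51 to 0.45), HS vs. CL 0.995 (adjusted p = 0.0477) and TR vs. HS -1.03 (adjusted p = 0.0639).

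DRD2, the inhibitory D2 receptor, was at 6.12, 5.89, 5.76 and 6.08 in TR, 6.92, 6.91, 6.88 and 7.12 in HS, and 6.16, 6.19, 6.09 and 6.51 in CL. Its TR arrays lay low, with an overlap of TR1 and CL3, and its HS arrays lay above all others. DRD2 was higher in HS vs. CL by 0.72 (adjusted p = 0.0183) and lower in TR vs. HS by -0.997 (adjusted p = 0.00392), while TR vs. CL gave -0.28 ± 0.11 (-0.53 to -0.02, adjusted p = 0.613). DRD1, the stimulatory D1 receptor, had 7.83 to 8.53 in TR, 7.86 to 8.38 in HS and 7.25 to 8.13 in CL, a difference of 0.52 (unadjusted p = 0.0435) that was 0.38 without CL2.

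Clock genes lay on both sides of their level in CL. Of 14 circadian clock genes, 3 were higher and 2 lower in TR at an unadjusted p (35.7% in both directions, against 6.86% of all genes). Without CL2, 1 was higher and 1 lower, beside 5.56% of all genes in both directions. None was DE, and the median over the list was 0.07. NR1D2, a nuclear receptor that represses clock genes, had 11.97, 11.61, 11.82 and 11.58 in TR, 11.79, 11.99, 11.80 and 11.63 in HS, and 12.01, 12.21, 12.04 and 12.25 in CL. Every heated or recovered bird lay below every CL bird, and the difference was -0.38 ± 0.11 in TR (adjusted p = 0.450), -0.36 without CL2 and -0.32 in HS (adjusted p = 0.138, under 1.5-fold).

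PER2, a repressor of the clock, was at 9.01, 9.91, 10.06 and 9.45 in TR, 9.38, 9.87, 9.44 and 9.35 in HS, and 9.79, 10.45, 10.05 and 10.39 in CL. TR2 and TR3 overlapped with CL. The difference was -0.57 (adjusted p = 0.605) in TR and -0.66 in HS (adjusted p = 0.146). The 3 members with higher signals were ARNTL, the activator BMAL1, at 0.32 in TR and 0.28 in HS, CRY1, the partner of PER2 in repression, at 0.44 and 0.34, and NFIL3, a repressor of clock outputs, at 0.40 and 0.69.

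ARNTL had 10.25, 10.13, 10.35 and 10.30 in TR, 10.23, 9.96, 10.36 and 10.32 in HS, and 10.11, 9.70, 9.84 and 10.11 in CL. CRY1 had 10.39, 9.995, 10.24 and 10.22 in TR, 10.11, 9.85, 10.35 and 10.13 in HS, and 10.05, 9.41, 9.70 and 9.93 in CL. ARNTL was above CL on every TR array, and in CRY1 TR2 lay within CL. In both genes CL2 was the lowest array, and without it the differences were 0.23 for ARNTL and 0.32 for CRY1. NFIL3 had 9.58, 9.49, 9.11 and 9.52 in TR, 9.81, 9.78, 9.45 and 9.84 in HS, and 9.28, 8.99, 9.25 and 8.58 in CL. Only TR3 overlapped with CL, and HS vs. CL was DE (adjusted p = 0.0592). The sources used here give no hour of the day for the sampling, so its part in the clock genes was not tested.

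**Figure D3:**
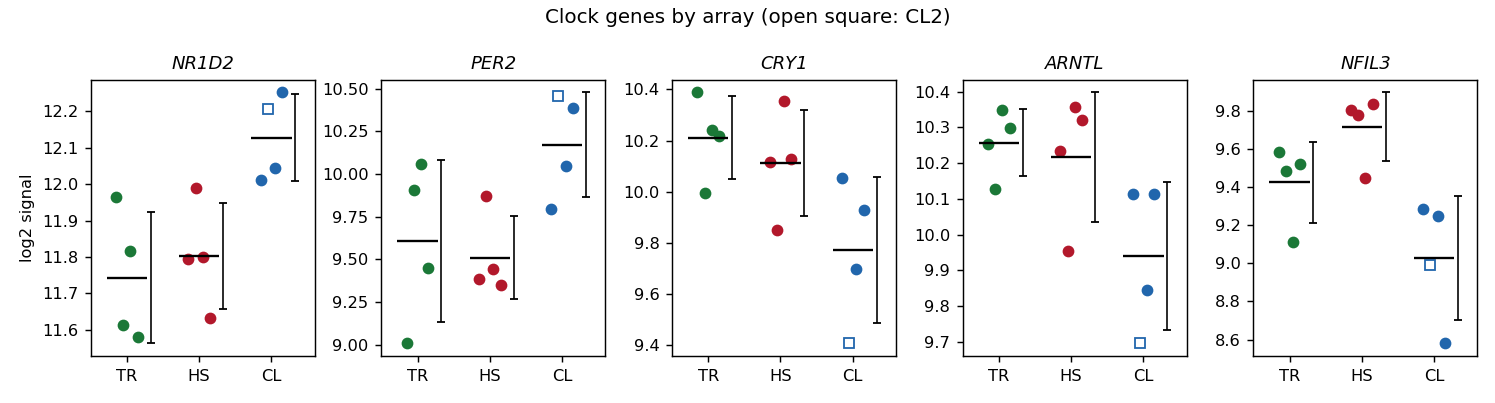
Log2 signal (vertical axes) of the 5 clock genes past an unadjusted p of 0.05 in TR vs. CL, for TR, HS and CL, with a point for each array, a line at the mean, bars of 1 SD and an open square for CL2. NR1D2 and PER2 lay lower in TR than in CL, with differences of -0.38 and -0.57, and CRY1, ARNTL and NFIL3 lay higher, with HS on the same side of CL as TR in each.

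Hormone axes gave little. None of 8 glucocorticoid genes passed an unadjusted p, and 6 had intervals within 1.5-fold. NR3C1, the glucocorticoid receptor, differed by -0.19 (unadjusted p = 0.204) and by -0.08 without CL2, and FKBP5, which glucocorticoids induce, by 0.23 on its brightest probe (unadjusted p = 0.0987) and 0.70 on the other (unadjusted p = 0.00510). Of 10 thyroid axis genes, the corepressor NCOR1 alone passed an unadjusted p, at 0.24 (unadjusted p = 0.0268). RXRG, a partner of nuclear receptors, gave 0.39 in TR vs. CL (unadjusted p = 0.0596) and 0.85 in TR vs. HS (adjusted p = 0.0708). It was above background on 2 HS arrays, so the second difference rests in part on signals not above background.

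TRPV4, a cation channel that opens in warmth, was at 6.55, 6.64, 6.45 and 6.64 in TR, 6.70, 6.58, 6.47 and 6.47 in HS, and 6.83, 6.76, 6.85 and 7.10 in CL. All TR and HS arrays were below all CL arrays. The difference was -0.32 ± 0.09 in TR (adjusted p = 0.459), -0.36 without CL2 and -0.33 in HS (adjusted p = 0.0893, under 1.5-fold). The other 5 TRP channels did not pass an unadjusted p, among them TRPC1 at -0.21 (unadjusted p = 0.0988).

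Fuel genes had intervals within 1.5-fold at about the share of all genes (72.9%). Of 34 fatty acid and glucose genes, 26 had intervals within 1.5-fold and 1 passed an unadjusted p, hexokinase HK2, at -0.20 (unadjusted p = 0.0491). PDK4, the kinase that spares glucose by shutting pyruvate dehydrogenase, had 8.92, 10.25, 10.16 and 9.38 in TR, 9.99, 10.38, 10.22 and 10.82 in HS, and 9.32, 8.63, 8.93 and 9.29 in CL. TR overlapped with both other groups, at 0.63 (-0.02 to 1.29) over CL, against 1.31 in HS vs. CL (adjusted p = 0.0518). CROT, which moves medium-chain fatty acids out of peroxisomes, was at 11.72, 6.97, 6.85 and 7.04 in TR, 12.09, 12.20, 13.06 and 12.34 in HS, and 11.96, 6.19, 11.96 and 12.81 in CL. TR2, TR3, TR4 and CL2 were low and the other 8 arrays high, so its difference of -2.58 (adjusted p = 0.693) was -4.10 without CL2 (adjusted p = 0.518).

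Of 24 sterol and fatty acid synthesis genes, FADS2, a desaturase, was lower at -0.28 (unadjusted p = 0.0160) and APOLD1 higher at 0.61 (unadjusted p = 0.0254). APOLD1, an early response gene of endothelium in mammals, had 7.77, 7.73, 7.31 and 6.60 in TR, 5.95, 6.20, 6.23 and 6.39 in HS, and 6.92, 7.00, 6.41 and 6.64 in CL. TR4 overlapped with CL, and HS lay below TR on every array. TR vs. HS gave 1.16 (adjusted p = 0.0580), which passed the limits.

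Growth factor genes differed by small steps both ways. Of 60 BMP, TGF-beta and Wnt genes, 4 were higher and 3 lower at an unadjusted p, the same counts as without CL2, and the median was -0.02. Among secreted factors, BMP4 gave 0.46 (unadjusted p = 0.0239) and 0.03 on its other probe, its antagonist CHRDL1 0.50 (unadjusted p = 0.0119) and WNT6 0.51 (unadjusted p = 0.0483), with the Wnt co-receptor LRP5 at 0.30 (unadjusted p = 0.0189). The Wnt antagonist FRZB was lower on each of 5 probes, by -0.49 on the brightest (unadjusted p = 0.00756), with 12.43, 12.55, 12.01 and 12.58 in TR, 12.57, 12.87, 12.61 and 12.29 in HS, and 12.78, 13.09, 12.76 and 12.92 in CL. TR and CL did not overlap.

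ENG, an endothelial co-receptor of TGF-beta, had 10.23, 10.49, 10.38 and 10.22 in TR, 10.24, 10.38, 10.12 and 10.02 in HS, and 10.52, 11.20, 10.6995 and 10.79 in CL. It lay below CL on all TR and HS arrays, by -0.47 in TR (adjusted p = 0.453) and by -0.61 in HS (adjusted p = 0.0518), while its other probes gave -0.24 and 0.01 in TR vs. CL. SOX17, an endothelial transcription factor, was the other of 30 vessel genes past an unadjusted p, at -0.52 (unadjusted p = 0.0145), and -0.35 without CL2. VEGFD, a growth factor of lymph vessels, gave -0.29 (-0.92 to 0.34) in TR vs. CL, against 1.20 in HS vs. CL (adjusted p = 0.0583) and -1.49 in TR vs. HS (adjusted p = 0.0476).

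Of 55 matrix and integrin genes, 3 were higher and 1 lower at an unadjusted p. Besides ITGA8, ITGA1, the collagen-binding alpha 1 subunit, had 10.66, 10.35, 10.7015 and 10.69 in TR, 10.24, 10.38, 10.43 and 10.52 in HS, and 10.06, 10.01, 10.13 and 10.13 in CL. TR and CL were separate. Its difference of 0.52 ± 0.10 passed the FDR limit (adjusted p = 0.144) and not the fold limit. VTN, vitronectin, an integrin ligand, was higher on all 3 probes, by 0.46, 0.42 and 0.47, with 11.37 to 11.53 in TR, 10.77 to 11.37 in HS and 10.697 to 11.23 in CL. PRELP, a matrix proteoglycan and the 1 of 17 meninges and fibroblast genes past an unadjusted p, gave 0.36 (unadjusted p = 0.0403), and FMOD, fibromodulin, gave -0.68 in TR vs. CL (unadjusted p = 0.0838) and -1.50 in TR vs. HS (adjusted p = 0.0863).

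Striated muscle genes set CL2 apart. Of 19 such genes, 16 had their highest signal of the 8 TR and CL arrays on CL2 and 13 their highest of all 12 arrays, while HS2 was the highest HS array for 13. ACTC1, cardiac actin, had 3.98, 5.91, 3.47 and 2.58 in TR, 6.05, 10.85, 6.91 and 7.82 in HS, and 5.27, 15.57, 7.71 and 5.98 in CL. On CL2 it was 9.25 above the mean of the other CL arrays, troponin T TNNT3 7.08 above and troponin I TNNI2 6.87 above. The part of muscle RNA in the results on other genes was not tested apart from leaving out the whole of CL2.

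The list had 3 genes lower in TR at an unadjusted p, and 1 without CL2. ACTC1 was above background on 1 TR array and MYL1 on 2, against all 4 CL arrays for each, so their differences rest in part on signals not above background. ACTC1 gave -4.64 (unadjusted p = 0.0369) and -2.33 without CL2, myosin light chain MYL1 -3.81 (unadjusted p = 0.0415) and -2.27, and troponin C TNNC2 -3.02 (unadjusted p = 0.105) and -1.33. TNNT3 gave -1.82, and -0.05 without CL2. MYH7, the slow myosin heavy chain, behaved otherwise on its brightest probe. It had 8.19, 8.01, 7.92 and 8.16 in TR, 8.09, 7.96, 7.94 and 8.16 in HS, and 8.86, 9.34, 9.11 and 8.25 in CL. It lay above TR on every CL array, and its difference was -0.82 ± 0.19 (adjusted p = 0.304) and -0.67 without CL2. The other probes of MYH7 gave -0.94 and -0.70 (unadjusted p = 0.0951 and 0.162), and -0.35 and -0.26 without CL2. SLC25A4, the ADP/ATP carrier of muscle mitochondria, had 10.94 to 11.44 in TR, 11.39 to 12.53 in HS and 11.87 to 14.05 in CL, with 14.05 on CL2, and differed by -1.23 and by -0.71 without CL2.

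**Figure D4:**
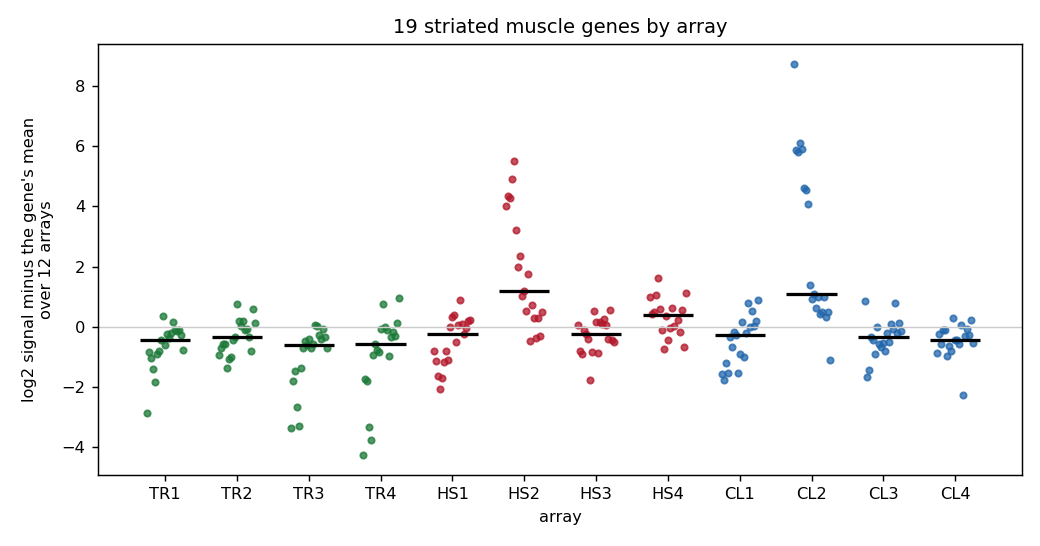
Log2 signal of 19 striated muscle genes on each array (horizontal axis), as the difference from the mean of the gene over 12 arrays, with a point for each gene and a line at the median. CL2, and to a lesser degree HS2, held several genes more than 4 above their mean, while the TR arrays had none above 1.

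Smooth muscle genes gave none of 13 past an unadjusted p, with a median of -0.15. MYH11, the smooth muscle myosin, had 9.43, 8.99, 9.57 and 9.51 in TR, 10.25, 11.63, 11.06 and 11.30 in HS, and 9.63, 9.12, 11.16 and 9.24 in CL. TR overlapped with CL and lay below HS, with -0.41 (unadjusted p = 0.346) in TR vs. CL, -0.64 without CL2, -1.69 in TR vs. HS (adjusted p = 0.0956) and 1.27 in HS vs. CL (adjusted p = 0.127).

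Glial genes were close to CL in the oligodendrocyte list, and less so in the list of astrocytes, tanycytes and ependyma. None of 16 oligodendrocyte and myelin genes passed an unadjusted p, 14 had intervals within 1.5-fold, and UGT8, an enzyme of myelin lipid synthesis, gave 0.17 (-0.10 to 0.45). The mean log2 signal of their 3 measured defining markers was 16.91 to 16.99 in TR, 16.84 to 17.14 in HS and 16.87 to 17.02 in CL. GFAP, the intermediate filament of astrocytes, had 17.77, 17.83, 17.85 and 18.14 in TR, 17.41, 17.57, 17.81 and 18.29 in HS, and 17.72, 16.97, 17.65 and 17.43 in CL. TR lay just above CL, and the difference of 0.46 (unadjusted p = 0.0471) was 0.30 without CL2. The other astrocyte markers, AQP4, SLC1A3 and GLUL, gave -0.12, -0.04 and 0.30 (unadjusted p = 0.393, 0.86 and 0.0761). The mean log2 signal of the 4 astrocyte markers overlapped between groups, at 16.04 to 16.34 in TR, 16.05 to 16.42 in HS and 15.86 to 16.24 in CL. Of 22 astrocyte, tanycyte and ependyma genes, GFAP was higher and FRZB and the lipid carrier PLTP were lower at an unadjusted p, PLTP by -0.29, -0.46 and -0.36 on its 3 probes. These made up 13.6% of the list, against 6.86% of all genes, and 12 of the 22 had intervals within 1.5-fold. By direction alone, 7 of the 22 were higher and 15 lower, with a median of -0.07.

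Genes of neighbouring tissues varied from bird to bird. The choroid plexus carrier TTR was at 8.19, 7.83, 10.37 and 8.89 in TR, 10.37, 12.91, 9.03 and 9.76 in HS, and 9.73, 9.08, 10.55 and 8.98 in CL, a difference of -0.77 (-2.50 to 0.96). The plexus markers KL and FOLR1 were not above background on any of the 12 arrays. CLDN1, a tight junction protein and the 1 of 12 choroid plexus genes past an unadjusted p, had 9.99, 9.11, 11.17 and 10.87 in TR, 9.93, 10.39, 10.67 and 9.77 in HS, and 8.75, 9.43, 9.31 and 9.45 in CL. Its difference was 1.05 (unadjusted p = 0.0218) on 2 probes and 0.31 on the third. ALDH1A3, an enzyme that makes retinoic acid, had 9.71 on TR3 and 7.79 to 7.93 on the other TR arrays, 7.67 to 8.60 in HS and 6.93 to 7.76 in CL, a difference of 1.12 (adjusted p = 0.563).

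Of the pituitary genes, those of growth hormone and prolactin were low in level. Over the 6 genes tested, the median log2 signal was 8.67 to 9.16 in TR, 8.10 to 8.995 in HS and 8.71 to 8.91 in CL. Of these 6, 2 were lower at an unadjusted p, with a median difference of -0.39, and growth hormone (GH) was not above background on any of the 12 arrays. PRL, prolactin, had 4.48, 5.12, 4.40 and 4.33 in TR, 5.65, 6.13, 6.75 and 4.61 in HS, and 6.07, 6.59, 6.30 and 5.62 in CL. It was above background on 2 TR, 3 HS and 4 CL arrays, and TR and CL did not overlap, with a difference of -1.56 ± 0.39 (adjusted p = 0.344). PRL passed the filter through CL alone, where it was higher, so its values are a description. The mean log2 signal of the defining markers GH and PRL was 3.43 to 4.04 in TR, 4.14 to 4.66 in HS and 4.01 to 5.12 in CL, and their part in the values of PRLH, SSTR2 and DRD2 was not tested.

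Of 8 erythroid and 34 immune genes, 1 and 14 had intervals within 1.5-fold, with medians of -0.37 and 0.02, and 0.10 and 0.10 without CL2. The globins HBAD and HBBA gave -0.59 and -0.34, and -0.01 and 0.20 without CL2, which held 14.70 and 15.80 against 11.24 to 13.93 and 12.51 to 14.94 on the other CL arrays. The 1 of 8 erythroid genes past an unadjusted p was TFRC, the transferrin receptor, with 5.35, 5.73, 5.61 and 5.68 in TR, 5.29, 5.91, 6.02 and 5.96 in HS, and 6.41, 6.08, 5.75 and 6.42 in CL. TR lay just below CL, by -0.57 (adjusted p = 0.525). Of 34 immune genes, the chemokine receptor CXCR4 was higher by 0.30 (unadjusted p = 0.0490) and CD8A, a T cell co-receptor, lower by -0.47 (unadjusted p = 0.0350), with 7.00 on CL2 and -0.25 without it.

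Prostaglandin genes differed in both directions. PTGS2, the cyclooxygenase that makes the prostaglandins of fever, had 9.57, 9.35, 10.01 and 9.45 in TR, 9.84, 9.93, 9.78 and 9.85 in HS, and 9.10, 9.24, 9.16 and 9.51 in CL. TR overlapped with both HS and CL, at 0.35 over CL (adjusted p = 0.591), and HS vs. CL gave 0.60 (adjusted p = 0.0542). PTGER2, a receptor of prostaglandin E, had 10.89, 11.10, 10.69 and 10.74 in TR, 12.34, 11.93, 11.59 and 11.56 in HS, and 11.97, 12.30, 11.70 and 11.11 in CL. It lay below HS and CL on every TR array, by -0.92 ± 0.24 against CL (adjusted p = 0.388) and by -1.001 against HS (adjusted p = 0.0920), although its other probe gave -0.10 against CL. NFKBIA, the inhibitor of NF-kappa B, gave 0.32, and with PTGS2 and PTGER2 made up the 3 of 26 prostaglandin and cytokine genes past an unadjusted p. Of 18 immediate early and activity genes, PTGS2, the matrix-cell protein CYR61 (0.38) and the cyclic AMP regulator CREM (0.30) were past it, and PTGS2 counts in both lists. Without CL2, CYR61 alone was past it and CREM gave 0.17 (unadjusted p = 0.121), and the other probe of CYR61 gave -0.04.

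Few neuronal genes passed an unadjusted p. They were 3.57% of neurotransmitter receptor genes, 4.17% of channel genes and 8.70% of synaptic genes, against 6.86% of all genes. CHRNA6, a nicotinic receptor subunit of dopamine neurons, was the 1 of 28 neurotransmitter receptor genes past an unadjusted p, with 5.71, 5.71, 6.50 and 5.47 in TR, 5.68, 5.33, 5.24 and 4.63 in HS, and 4.85, 4.41, 4.76 and 5.23 in CL. It was above background on 4 TR arrays and 1 CL array, and differed by 1.03 ± 0.26 (adjusted p = 0.364). CHRNA6 passed the filter through TR alone, so its values are a description. KCNA3, a voltage-gated potassium channel, was the 1 of 24 channel genes, with 8.22, 8.11, 7.97 and 7.76 in TR, 8.54, 8.58, 8.34 and 8.53 in HS, and 8.89, 9.22, 8.66 and 8.44 in CL. TR lay below both other groups, by -0.79 ± 0.16 against CL (adjusted p = 0.180) and -0.65 without CL2 (adjusted p = 0.341).

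Of 23 synaptic genes, 2 passed an unadjusted p. Among 33 region factors, 2 were lower at an unadjusted p, among them PAX7 at -0.30 (unadjusted p = 0.0302), and -0.19 without CL2 (unadjusted p = 0.0887). NEUROD1, a factor of neuronal differentiation, was at 8.67 to 10.53 in TR, 9.99 to 11.87 in HS and 8.83 to 11.23 in CL, with its lowest CL signal on CL2, and gave -1.01 (unadjusted p = 0.113), and -1.57 without CL2 (unadjusted p = 0.00862, adjusted p = 0.712).

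Of 65 solute carriers, 3 were higher and 1, SLC25A4, was lower at an unadjusted p, and 51 had intervals within 1.5-fold. SLC22A3, a transporter of organic cations such as monoamines, had 7.9995, 7.75, 8.25 and 7.74 in TR, 7.77, 7.13, 7.97 and 7.95 in HS, and 7.06, 7.05, 7.11 and 7.44 in CL. TR lay above CL throughout, by 0.77 ± 0.19 (adjusted p = 0.344). SLC9A8, a sodium-proton exchanger, was tight within groups, at 11.28 to 11.34 in TR, 11.23 to 11.39 in HS and 10.91 to 11.07 in CL, a difference of 0.32 ± 0.07 (adjusted p = 0.265).

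Genes of respiration, translation and protein turnover had narrow intervals. All 17 respiratory chain genes had intervals within 1.5-fold and none passed an unadjusted p, among them SDHB at -0.07 and NDUFB8 at 0.11. Of 54 ribosomal and translation genes, 52 had such intervals, 1 was higher and 4 were lower at an unadjusted p, with RPL13 at -0.35 on one probe and 0.01 on the other, RPL27 at -0.23, the elongation factor EEF2 at -0.16 and the initiation factor EIF1 at 0.21. Of 65 proteasome and ubiquitin genes, 58 had such intervals. UBE2A, a ubiquitin-conjugating enzyme, had 11.43, 11.37, 11.39 and 11.48 in TR, 11.40, 11.35, 11.38 and 11.28 in HS, and 11.25, 10.92, 11.14 and 10.999 in CL. Recovered and heated birds both lay above CL, by 0.34 ± 0.08 (adjusted p = 0.340) and 0.27 (adjusted p = 0.104), while FBXO42 gave -0.53 in TR and 0.25 on each of its other probes.

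RBM3, an RNA-binding protein that cold induces in mammals, had the smallest p of 51 splicing and RNA-binding genes, with 14.53, 14.49, 14.75 and 14.85 in TR, 14.43, 14.72, 14.31 and 14.71 in HS, and 14.92, 14.97, 14.96 and 15.06 in CL. All TR and HS arrays were below CL. The difference was -0.32 ± 0.12 in TR (adjusted p = 0.559), -0.32 without CL2, and -0.43 in HS (adjusted p = 0.0779, under 1.5-fold), and its other probe gave -0.16 in TR vs. CL. RBM6 gave -0.45 (unadjusted p = 0.0300), and 50 of the 51 genes had intervals within 1.5-fold.

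Some of the larger differences of named genes did not pass the adjustment. ERNI had 11.39, 11.44, 11.20 and 11.35 in TR, 11.33, 8.90, 10.97 and 9.03 in HS, and 8.31, 11.01, 8.24 and 8.59 in CL. The TR arrays, HS1, HS3 and CL2 were between 10.97 and 11.44 and the other arrays between 8.24 and 9.03. Its difference was 2.31 ± 0.67 (adjusted p = 0.451) and 2.96 without CL2 (adjusted p = 0.286), and ENS-1, whose name and probes belong to the same family of near-identical retroviral copies, gave 0.72 to 3.15 on 5 probes, so that the copy measured is uncertain. VTG2, the yolk precursor vitellogenin, had 6.92, 8.77, 8.11 and 7.96 in TR, 8.04, 8.46, 7.53 and 7.27 in HS, and 5.71, 5.87, 7.73 and 6.28 in CL. CL3 overlapped with TR, and the difference was 1.54 (adjusted p = 0.502).

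BNIP1, an ER protein of membrane fusion, had 7.18, 7.09, 8.89 and 8.15 in TR, 6.93 to 7.18 in HS and 6.72 to 6.93 in CL, a difference of 0.98 (adjusted p = 0.520) carried by TR3 and TR4. ARR3, a cone arrestin, gave 0.74 in TR vs. CL (adjusted p = 0.473) and 0.76 in TR vs. HS (adjusted p = 0.142), and was above background on 2 HS arrays. BKJ, a beta-keratin, gave -0.95 on one probe (adjusted p = 0.505) and -0.15 on the other. FAM71D lay below CL in TR by -0.62 (adjusted p = 0.304) and in HS by -0.78 (adjusted p = 0.0301), with 8.84 to 9.09 in TR, 8.75 to 8.84 in HS and 9.16 to 9.99 in CL.

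The genes that the study measured by PCR cover the classes above. The study chose them on these samples, so their array values are a description. The plot by gene shows 9 of them. ITGA8 was the 1 of them DE in TR vs. CL in the fit here, where it was higher in TR. The study instead lists it as lower in TR vs. CL, with significance on the array and not by PCR. The array fold change it lists there is close in size to the 2.52-fold rise here, with the opposite sign. For HS vs. TR the study lists ITGA8 as lower in HS on the array and by PCR, the same direction as here. The reason for the opposite sign in TR vs. CL was not tested. LPAR4 (GPR23 in older lists), a receptor of lysophosphatidic acid, gave 0.00 (-0.43 to 0.43) in TR vs. CL, against 0.67 in HS vs. CL (adjusted p = 0.0937) and -0.67 in TR vs. HS (adjusted p = 0.141). HMOX1, which breaks down heme, gave -0.15 (-0.63 to 0.34), and -0.29 without CL2, against -0.71 in HS vs. CL (adjusted p = 0.113). The study lists HMOX1 as lower in TR vs. CL by PCR, with significance, and lists no array change for it there. The DNAJ protein DNAJC13 gave 0.01 (-0.18 to 0.20) and the syndecan SDC1 0.06 (-0.38 to 0.50). Other probes of DNAJC13 gave 0.07 and 0.31 in TR vs. CL (unadjusted p = 0.463 and 0.0543). In HS vs. CL its brightest probe gave -0.14 (adjusted p = 0.371), where the study lists DNAJC13 as higher.

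SFRP1, a secreted Wnt antagonist, had 10.31, 10.20, 10.09 and 10.12 in TR, 10.55, 10.57, 10.43 and 10.40 in HS, and 10.74, 10.40, 10.42 and 10.44 in CL on its brightest probe. TR lay below both other groups, by -0.32 ± 0.09 against CL (adjusted p = 0.451), whereas the other probe gave 0.65 in TR vs. CL (unadjusted p = 0.00594). The direction of SFRP1 therefore depends on the probe. The study lists it as higher in TR vs. CL on the array and by PCR, the direction of the dimmer probe. Over all 31 genes the study names that were tested, 5 were higher and 5 lower in TR at an unadjusted p. That is 32.3% of them, against 6.86% of all genes. At the DE limits, 1 was DE in TR vs. CL, beside 0.0945% of all probes. In HS vs. CL, 11 were higher and 3 lower at those limits, beside 3.58% of all probes. The study chose these genes for how they moved, so the counts are not independent of it.

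**Figure D5:**
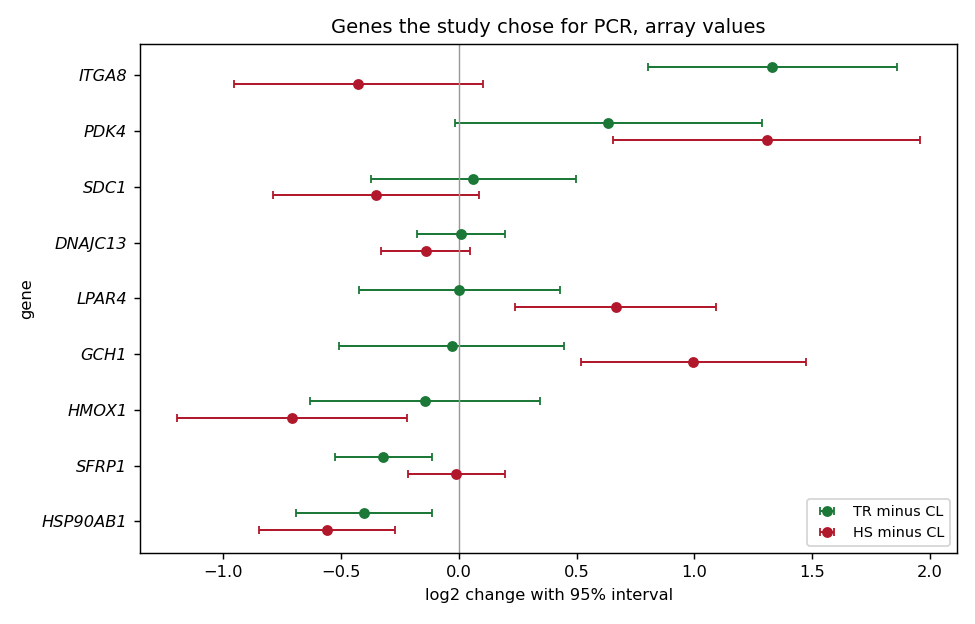
Log2 difference (horizontal axis) with its 95% interval for 9 genes the study chose for PCR, measured on the arrays, as TR minus CL (upper mark of each pair) and HS minus CL (lower mark). ITGA8 stands at 1.33 in TR with -0.43 in HS, while LPAR4 and GCH1 stand at 0.00 and -0.03 in TR, with 0.67 and 0.995 in HS.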

How the data were processed

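Hypothalamus RNA of 12 birds was labelled with cyanine 3 and hybridized to 1-colour Agilent chicken arrays with 43603 probes besides the controls. For each array the authors deposited the processed intensity of every spot from Feature Extraction 10.7.3.1, after background subtraction and without scaling between arrays, and marked which spots were outliers and which lay above background. The authors also deposited a quantile-normalized log2 table, used as an alternative after 99.9% of its 43606 entries were matched to features by value (root mean square difference under 0.1, within 12 feature numbers), since 65.6% matched at their own number.

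Processed intensities were taken to log2, 420 values of outlier spots were left out, arrays were quantile-normalized and spots of a probe averaged. Probes above background on all 4 arrays of a group were kept (34929), and 34922 could be tested in TR vs. CL. Differences were tested with lmFit and eBayes of limma 3.58.1 (R 4.3.3, version 1.17.8 of data.table, jsonlite 2.0.0) in 1 fit of the 3 groups to 12 arrays, and p-values were adjusted by Benjamini-Hochberg over all probes. The steps were tested on simulated data. The number of arrays limits the precision. Figures used matplotlib 3.10.9 (Python 3.11.15, pandas 2.3.3, numpy 2.4.6).

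By accession, 10185 probes matched 4814 genes of a RefSeq table (assembly GRCg7b), and 9 more were named through accessions the study gives. A gene is represented by its brightest tested probe. The comparison, the 39 gene lists and the genes were chosen with earlier results of these data known. Named are all DE probes with a gene name, the 5 largest unnamed ones in each direction, the members of each list with the smallest p, genes the study measured by PCR, the muscle genes with the largest excess on CL2, and the 10 largest differences without overlap in each direction. Members past an unadjusted p that the rule does not reach, and AVP, HSPA8, NPY, CROT, NEUROD1, TTR, HBAD, HBBA, TNNC2, MYH11 and VEGFD, were singled out after their values were seen. Some named genes are not reported here. Markers are the exception, as they are named where a tissue is checked. The alternatives were other scaling, background correction, filters, limits, tests, blocks and weights, and leaving out each array.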

Additional observations from a re-analysis of the deposited data

Results flagged for a closer look

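In 19 of 244 groups of 4 arrays of the named probes, 1 array lay far from the other 3. The limit was a gap over the range above 0.829, which chance alone passes in about 1 in 20 groups. Some probes were named for their excess on CL2 or after their values were seen. The counts are therefore a description, not a test against that rate. CL2 accounted for 6 of the 19. It was high for MYL1 (13.69, against 7.38 to 7.70 on the other CL arrays, gap ratio 0.95), TNNI2 (13.82, against 6.60 to 7.45, 0.883), SLC25A4 (14.05, against 11.87 to 12.08, 0.901) and ERNI (11.01, against 8.24 to 8.59, 0.873), and low for CROT (6.19, against 11.96 to 12.81, 0.871) and NEUROD1 (8.83, against 10.88 to 11.23, 0.853). The other CL arrays apart were CL1 for HK2 (8.34, ratio 0.865) and SFRP1 (10.74, ratio 0.879), CL3 for the probe A_87_P119353 (8.51, ratio 0.947), and CL4 for SLC22A3 (7.44, ratio 0.83).

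Among TR arrays, TR1 was high for CROT (11.72, against 6.85 to 7.04 on the other TR arrays, ratio 0.962) and low for RPL27 (16.93, ratio 0.841) and A_87_P178808 (5.90, ratio 0.971). TR2 was high for HK2 (8.41, ratio 0.913), low for ITGA1 (10.35, ratio 0.884), and apart for TH (3.99, ratio 0.97), which was above background on no TR array. TR3 was high for ALDH1A3 (9.71, against 7.79 to 7.93, ratio 0.922) and low for A_87_P061776 (7.96, ratio 0.829), and TR4 was high for DNAJC6 (12.53, ratio 0.842).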

How the results depend on the processing

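The 33 DE probes (16 higher, 17 lower in TR, 48.5% higher) depended on the settings. Scaling to the 75th percentile gave 57 (45 lower, 21.1% higher), normexp 19 (5 higher, 26.3% higher), array weights 52 (28 lower), the fit to TR and CL alone 10 (4 higher, 6 lower), no FDR limit 482 (268 higher, 214 lower), an FDR of 0.05 none (0 in either direction), and a t-test 1 (0 higher, 1 lower, 0% higher). Leaving out 1 array gave 0 to 42 DE probes (0 to 27 higher, 0 to 32 lower, 23.8% to 83.3% higher), with 0 without TR3, 6 without TR4, 8 without CL2, 15 without HS3, 17 without HS1 and 20 without TR1. Without CL2 and HS2 together, 11 remained in the count (7 higher, 4 lower). With the replicate number as a block there were 20 (8 higher). The numbers share no stated origin, deviations of same-numbered TR and CL arrays correlated at -0.13 to 0.10, and no TR array correlated best with its own number, so they were not taken as pairs. Each filter on dim probes, kept outlier spots and the deposited table gave 29 to 33. The cause of these shifts was not tested.

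List medians stayed within the spread between arrays except as follows. Without CL2 and HS2 the medians were 0.0333 for peptide hormone receptors, 0.0267 for fuel use, -0.0514 for immediate early genes, 0.000451 for oligodendrocyte genes and -0.0788 for voltage-gated channels. With normexp, fuel use was 0.0107 and oligodendrocyte 0.00547, and with array weights fuel use was 0.00218. Scaling to the 75th percentile gave -0.0724 for ribosomal genes and -0.116 for genes named in the study, and the filter on all 8 arrays gave -0.256 for the pituitary. With 1 array left out, medians ran from -0.224 to 0.0333 for peptide hormone receptors, -0.0268 to 0.0267 for fuel use, -0.0763 to 0.0187 for oligodendrocyte, -0.0514 to 0.116 for immediate early, -0.0788 to 0.0609 for voltage-gated channels, 0.0146 to 0.0955 for the clock, 0.000368 to 0.0346 for proteasome, -0.0272 to 0.00628 for splicing and -0.145 to -0.00278 for genes named in the study.

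Directions of 10 named genes turned, all with differences short of the limits. With 1 array left out, the difference ran from -0.262 to 3.07 for AVP, -0.140 to 1.06 for NPY, -0.899 to 0.197 for HBBA, -0.0563 to 0.0889 for HSPA8, -0.0416 to 0.0565 for DNAJC13, -0.173 to 0.118 for GCH1, -0.291 to 0.0252 for HMOX1, -0.161 to 0.149 for LPAR4, -0.635 to 0.0446 for MYH11 and -0.0649 to 0.231 for SDC1. Without CL2 and HS2 together, AVP was -0.262, NPY -0.140, HBBA 0.197 and HSPA8 -0.0434. HSPA8 was -0.0555 with the 75th percentile and -0.000812 with array weights, and DNAJC13 was -0.0388 with normexp.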
